A study of Rattus norvegicus with 44 samples.

Results

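The TGF-beta and BMP signalling family was followed through the kidney transcriptome of obese ZSF1 rats treated with Enalapril, with the soluble guanylate cyclase stimulator Compound 1, or with both. Members were all entries whose symbol begins with Bmp, Gdf, Smad, Tgfb, Inha, Inhb or Acvr, together with Fst, Fstl1, Fstl3 and Ltbp1 to Ltbp4, which gave 62 of the 32883 entries in the table, each on 1 entry. Of the 62, 45 had an FPKM (fragments counted for each kilobase of a transcript, relative to all those mapped) above 1 in at least 9 of 44 animals and were tested, and 17 did not. The rats were male and of the obese ZSF1 strain, a model of diabetic nephropathy, and were fed the drugs for 6 months from 22 weeks of age. All animals carried a telemetry device for blood pressure. Vehicle (n = 11) was chow without drug. Enalapril, an inhibitor of angiotensin-converting enzyme, was dosed at 3 mg/kg/day alone (n = 9) and in the combination (n = 12). Compound 1 alone (n = 12) was raised from 1 to 3 mg/kg/day, whereas the combination held it at 1 mg/kg/day, so that its dose was not the same in both groups. No lean or untreated healthy rats were among the animals, so the values describe treatments within one diseased strain. Each library came from a frozen piece of the right kidney of 1 animal.

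TGF-beta is secreted in a latent complex with a binding protein (Ltbp) that tethers it to the matrix, and once released it signals through a pair of receptor kinases to Smad2 and Smad3, which enter the nucleus with Smad4. BMPs and some GDFs use related receptors and Smad1, Smad5 and Smad9, activins share the Smad2 and Smad3 branch, and follistatins bind and neutralise activins. In the kidney the TGF-beta branch is known for driving matrix production in fibrosis, whereas Bmp7 is known for its role in nephron formation and for opposing TGF-beta.

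Whole-kidney RNA mixes many cell types, so fewer cells of a type and less RNA per cell cannot be told apart. Relative depth, estimated from low FPKM values, lay between 0.615 and 1.42 of the median library, and absolute depth is unknown because FPKM carry no read totals. Markers of nephron segments were present in every animal, as the kidney label requires. Treatment also moved markers of other cell types: of 6 fibroblast and pericyte markers 3 were lower with Enalapril and 3 with the combination, of 6 macrophage markers 2 and 3 were, and of 7 T and B cell markers 4 and 5 were. Of all tested genes 4.04% were lower with Enalapril and 6.39% with the combination. These counts required both the adjusted p and the fold threshold given below. By them no nephron segment, podocyte, inner medulla, endothelium, smooth muscle or urothelium marker was lower or higher in either comparison. With the combination 1 adipocyte marker was higher. Levels still differed. Inner medulla markers had a mean log2 level of 3.82 ± 0.197 (SD) in Vehicle, 3.59 ± 0.185 with Enalapril and 3.70 ± 0.161 with the combination. Summed smooth muscle markers had medians of 204, 149 and 171 FPKM in that order, and proximal tubule markers 1554, 1842 and 1933. These sums and means were not tested. After median-of-ratios scaling, which centres the bulk of genes, 2 and 2 fibroblast and pericyte markers, 0 and 0 macrophage markers and 1 and 1 T and B cell markers were lower. The shares of all genes that were lower were then 1.22% and 2.31%. The summed fibroblast and pericyte markers lay between 292 and 509 FPKM in Vehicle, 184 and 343 under Enalapril, 230 and 477 under Compound 1, and 201 and 336 under the combination. No fibroblast and pericyte, macrophage or T and B cell marker was at 0 in any animal, and the part of these cell types in the family's differences was not tested. The median of all 13482 tested genes lay -0.15 from Vehicle on the log2 scale under Enalapril, -0.07 under Compound 1 and -0.18 under the combination. After scaling these medians were 0.0011, 0.0035 and -0.0086.

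The most abundant members came from several roles. Averaged over the 44 animals, the highest were Tgfb1 at 51.9 FPKM, Ltbp4 at 50.4, Bmp7 at 44.2, Fstl1 at 36.5 and Tgfbr2 at 31.9. These are a TGF-beta ligand, a latent binding protein, a BMP ligand, a follistatin-like glycoprotein and the type II TGF-beta receptor. The 17 members under the filter were Gdf2, Gdf3, Gdf5, Gdf6, Gdf7, Gdf9, Gdf10, Bmp5, Bmp8a, Bmp8b, Bmp10, Bmper, Smad9, Inhba, Inhbc, Inhbe and Acvr1c, and none of them exceeded 1 FPKM in any animal. Among them Gdf10 averaged 0.488 ± 0.183 FPKM (SD, n = 11) in Vehicle, 0.305 ± 0.134 (n = 9) with Enalapril, 0.350 ± 0.179 (n = 12) with Compound 1 and 0.377 ± 0.121 (n = 12) with the combination. Gdf2, which encodes the circulating ligand BMP9, was listed at 0 in 41 of the 44 animals, and its highest value was 0.0468 FPKM. Among the 45 tested members, the coefficient of variation between animals of a group had a median of 15.5% in Vehicle, 15.4% under Enalapril, 17.2% under Compound 1 and 17.8% under the combination. Tgfbrap1 varied least in Vehicle at 5.56%, and Gdf1 varied most at 57.9%.

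**Figure D1:**
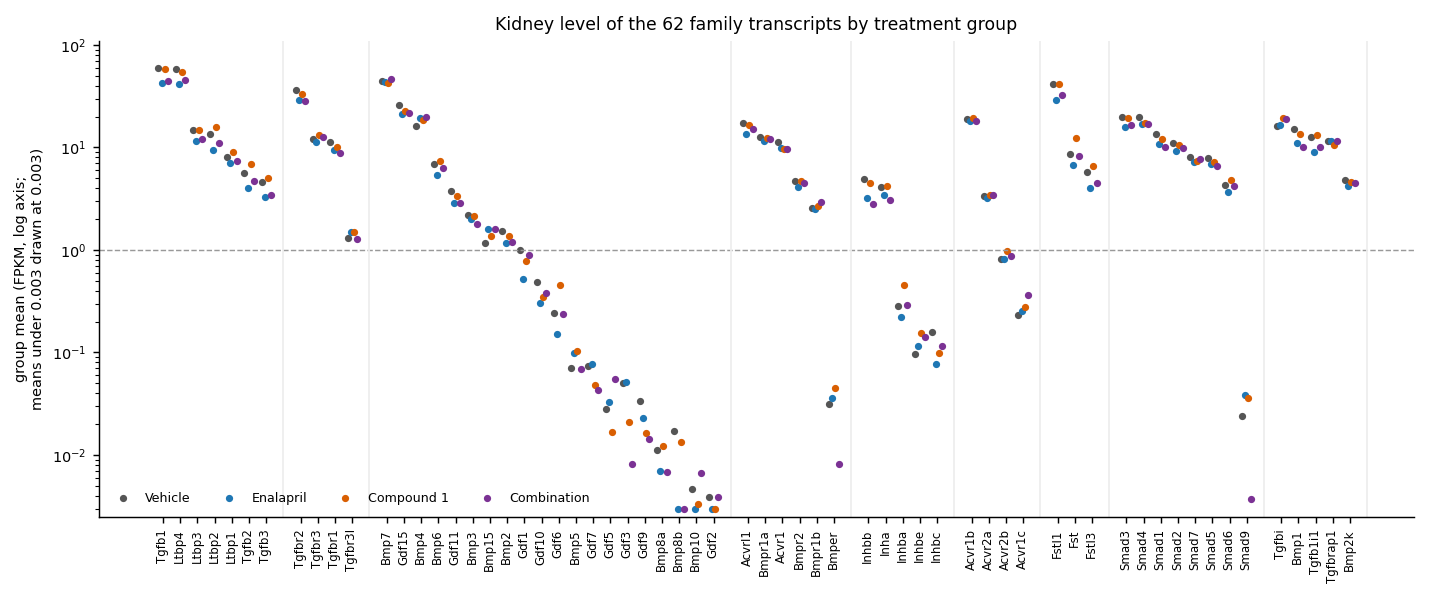
Group means of the 62 family transcripts in FPKM on a log axis, 1 point per treatment group, members ordered by role and then by level; the dashed line marks 1 FPKM, the level behind the filter. Tgfb1, Ltbp4 and Bmp7 stand near the top of their groups. The 17 members under the filter lie under the line in every group, and so do the means of the tested member Acvr2b.

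Few members were differentially expressed genes (DEGs) against Vehicle, meaning a fold change over 1.5 or below 0.66 together with an adjusted p below 0.05. With Enalapril 1 of 45 was lower, Inhbb, beside 4.04% of all tested genes lower. With Compound 1 none was called, beside 0.200% of all tested genes in either direction. An unadjusted p under 0.05 by limma was found for 7 of the 45 members and for 1793 of all 13482 tested genes. With the combination 2 were lower, Inhbb and Bmp1, beside 6.39% of all tested genes lower. After scaling 0, 0 and 0 members were DEGs by limma, beside 1.22% of all genes lower with Enalapril, 0.193% in either direction with Compound 1 and 2.31% lower with the combination, and 16, 2 and 13 members had an adjusted p under 0.05 without the fold threshold. At any fold, 20 members fell and none rose with Enalapril (all genes 26.6% lower and 3.57% higher), 1 rose with Compound 1 (all genes 0.134% higher), and 19 fell and 3 rose with the combination (all genes 39.3% lower and 6.38% higher). After scaling the test at any fold gave 13 lower and 3 higher with Enalapril (all genes 9.66% and 10.4%), 2 higher with Compound 1 (all genes 0.378%), and 7 lower and 6 higher with the combination (all genes 15.3% and 16.6%). The 6 higher were Bmp4, Bmp7, Bmp15, Tgfbi, Tgfbr3 and Tgfbrap1, and the 3 higher with Enalapril were Bmp4, Bmp15 and Tgfbi. The median difference of the 45 members was -0.25 under Enalapril, -0.01 under Compound 1 and -0.21 under the combination, and after scaling -0.10, 0.06 and -0.04. The 3 comparisons share the 11 Vehicle animals, so they are not independent of each other.

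**Figure D2:**
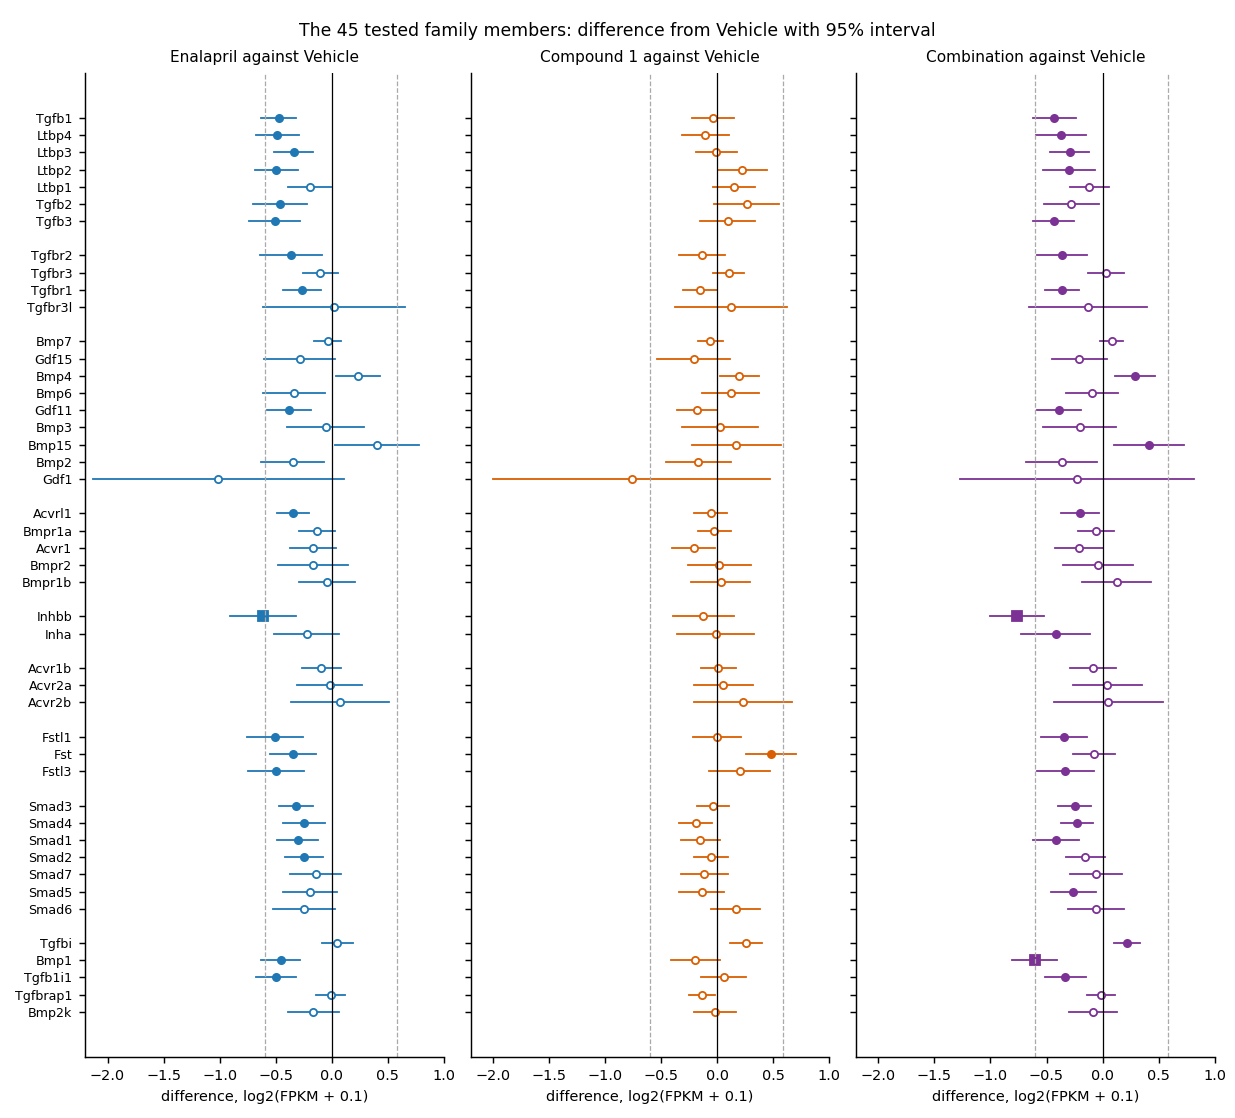
Difference from Vehicle of the 45 tested members on the log2(FPKM + 0.1) scale with 95% intervals, 1 panel per treatment and members grouped by role; filled points have an adjusted p under 0.05, squares are DEGs, and dashed lines mark the fold thresholds. With Enalapril 40 of the 45 members lie left of 0, the TGF-beta ligands, latent binding proteins and follistatins among them. With Compound 1 Fst alone is filled.

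The TGF-beta ligands and their latent binding proteins fell with Enalapril. Of the 7 transcripts, 6 fell and none rose, none of them past the fold threshold, beside 26.6% of all genes lower at any fold. After scaling 6 were also lower, beside 9.66% of all genes. With inner medulla marker level as a covariate the median difference of the 45 tested members with Enalapril was -0.18, beside -0.25 without it. The share of all genes called lower past the fold threshold was then 0.912%, beside 4.04%. Which of the 7 pass at any fold with that covariate is not given here. Tgfb1, the main profibrotic isoform, ran from 48.0 to 70.1 FPKM in Vehicle (median 61.2), from 36.3 to 48.5 with Enalapril (median 42.9), from 44.4 to 72.2 with Compound 1 (median 61.6) and from 34.3 to 63.3 with the combination (median 41.0). With Enalapril 8 of 9 animals lay below the lowest Vehicle animal, with the combination 8 of 12 did, and the Compound 1 animals covered the whole Vehicle range. Tgfb1 was lower, at -0.47 ± 0.07 (SE, log2) with Enalapril, adjusted p = 0.000247 by limma, and -0.43 ± 0.09 with the combination, adjusted p = 0.000808, whereas with Compound 1 the difference was -0.04 with a 95% interval from -0.22 to 0.15.

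Tgfb2 and Tgfb3, the isoforms of lower abundance, averaged 5.65 ± 1.11 and 4.63 ± 0.589 FPKM (SD, n = 11) in Vehicle. Tgfb2 ran from 3.83 to 7.83 FPKM in Vehicle (median 5.66), from 3.12 to 5.16 with Enalapril (median 3.77), from 4.08 to 12.1 with Compound 1 (median 6.59) and from 3.12 to 6.31 with the combination (median 4.61). The Compound 1 group reached highest and the Enalapril group stayed lowest, with overlap between neighbours. Tgfb2 fell with Enalapril, at -0.46 ± 0.12 (adjusted p = 0.00552), and did not pass with the combination, at -0.28 ± 0.12 (adjusted p = 0.0624). Tgfb3 ran from 3.94 to 5.58 FPKM in Vehicle (median 4.54), from 2.45 to 5.0 with Enalapril (median 3.13), from 3.03 to 7.23 with Compound 1 (median 5.04) and from 2.62 to 4.19 with the combination (median 3.44). All but 1 Enalapril animal and 10 of 12 combination animals lay below every Vehicle animal. Tgfb3 fell, at -0.51 ± 0.11 with Enalapril (adjusted p = 0.00198) and -0.44 ± 0.09 with the combination (adjusted p = 0.000541).

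**Figure D3:**
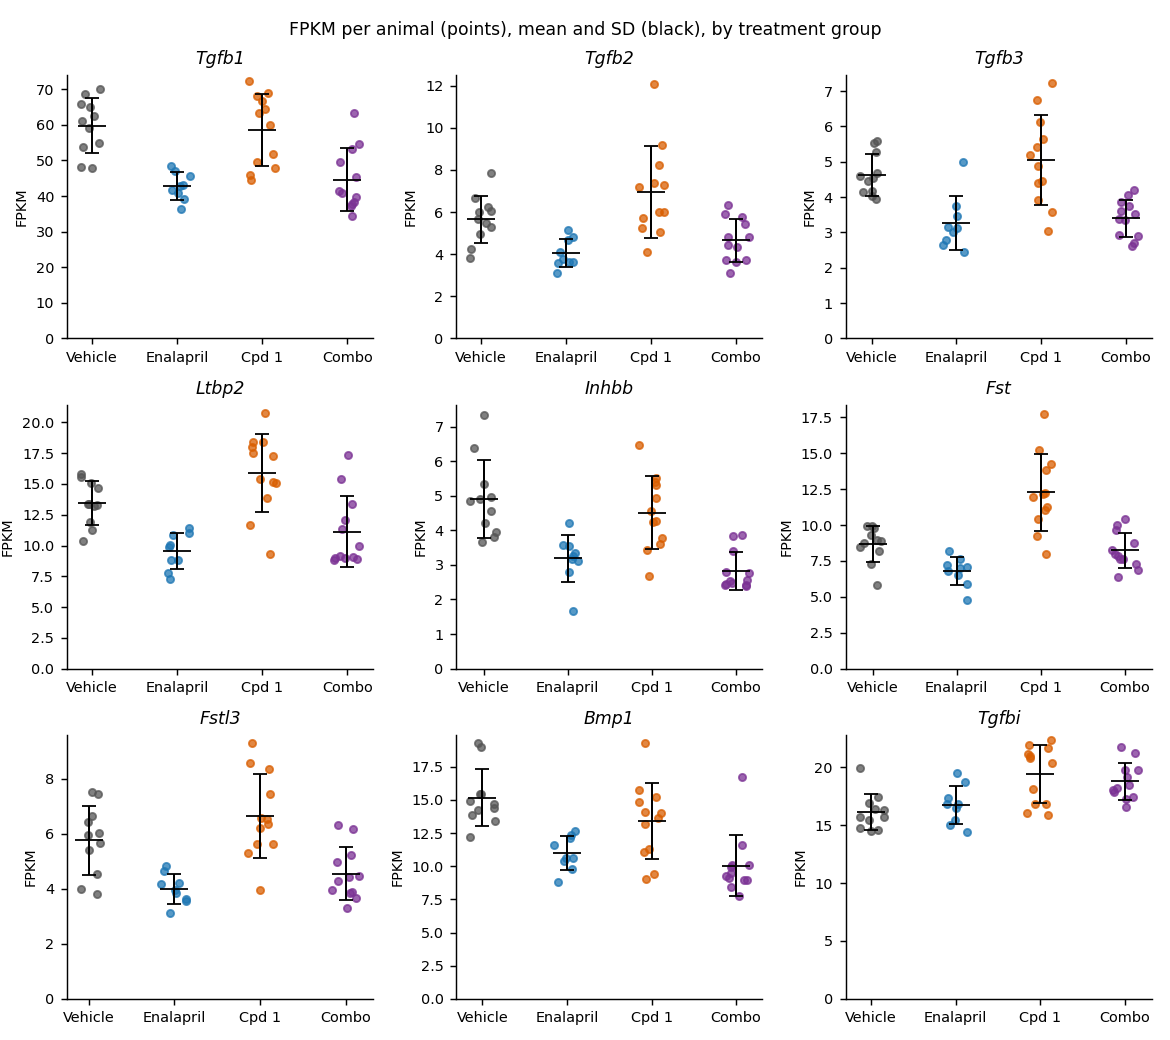
FPKM of 9 members in each of the 44 animals by treatment group (Cpd 1 is Compound 1, Combo the combination), with the mean and SD in black and each axis starting at 0. For Inhbb all 12 combination animals lie below the Vehicle median of 4.84 FPKM, and for Fst 10 of 12 Compound 1 animals lie above the highest Vehicle animal.

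Ltbp4 and Ltbp3 fell in both Enalapril-containing groups, and Ltbp1, which binds all TGF-beta isoforms in latent form, did not pass against Vehicle. Ltbp4 averaged 58.4 ± 9.05 FPKM in Vehicle (SD, n = 11), 41.5 ± 6.01 (n = 9) with Enalapril, 54.6 ± 9.78 (n = 12) with Compound 1 and 45.7 ± 10.9 (n = 12) with the combination, a difference of -0.49 ± 0.09 with Enalapril (adjusted p = 0.000875) and -0.37 ± 0.11 with the combination (adjusted p = 0.00698). Ltbp3 averaged 14.8 ± 1.77, 11.7 ± 1.57, 14.8 ± 2.54 and 12.1 ± 2.34 FPKM in the same order. After scaling neither passed with the combination, Ltbp4 at -0.20 (adjusted p = 0.0603) and Ltbp3 at -0.12 (adjusted p = 0.147). Ltbp2, a matrix protein of the same family that does not bind latent TGF-beta, ran from 10.3 to 15.8 FPKM in Vehicle (median 13.4), from 7.25 to 11.4 with Enalapril (median 9.85), from 9.33 to 20.8 with Compound 1 (median 16.3) and from 8.83 to 17.4 with the combination (median 9.55). Ltbp2 fell, at -0.50 ± 0.09 with Enalapril (adjusted p = 0.000771) and -0.30 ± 0.11 with the combination (adjusted p = 0.0307), the latter with an adjusted p of 0.304 after scaling. Ltbp1 averaged 8.0 ± 1.01 FPKM in Vehicle and 7.01 ± 1.23 with Enalapril, with adjusted p = 0.111.

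Of the TGF-beta receptors, Tgfbr1 and Tgfbr2, the type I and type II signalling kinases, fell with Enalapril and with the combination. Tgfbr2 ran from 24.0 to 45.5 FPKM in Vehicle (median 40.3), from 15.7 to 38.3 with Enalapril (median 29.6), from 24.1 to 41.3 with Compound 1 (median 32.9) and from 21.4 to 39.5 with the combination (median 27.6). The groups overlapped widely, and the difference was -0.36 ± 0.13 with Enalapril (adjusted p = 0.0452) and -0.36 ± 0.11 with the combination (adjusted p = 0.00968). Tgfbr1 averaged 11.3 ± 1.25 FPKM in Vehicle, 9.41 ± 1.45 with Enalapril and 8.78 ± 1.1 with the combination, and fell, at -0.27 ± 0.08 (adjusted p = 0.0209) and -0.36 ± 0.07 (adjusted p = 0.000512). After scaling Tgfbr2 passed in neither comparison (adjusted p = 0.222 and 0.114) and Tgfbr1 passed with the combination (adjusted p = 0.00672). Tgfbr3, the coreceptor betaglycan, differed by -0.10 with Enalapril and by 0.03 with the combination, and its adjusted p was 0.316 and 0.741. Tgfbr3l, a betaglycan-like gene, averaged 1.31 ± 0.472 FPKM in Vehicle and its interval against Vehicle ran from -0.61 to 0.65 with Enalapril.

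Of 20 BMP and GDF ligands 9 were tested and none was a DEG. At any fold 1 fell with Enalapril (all genes 26.6% lower), and 1 fell and 2 rose with the combination (all genes 39.3% lower and 6.38% higher). Bmp7, the most abundant of them and a product of the distal nephron and podocytes, ran from 38.7 to 50.9 FPKM in Vehicle (median 44.5), from 35.5 to 48.3 with Enalapril (median 42.0), from 36.0 to 50.04 with Compound 1 (median 43.7) and from 40.4 to 51.4 with the combination (median 47.7). The 4 groups overlapped throughout, and the difference from Vehicle had a 95% interval of -0.16 to 0.09 under Enalapril, of -0.17 to 0.05 under Compound 1 and of -0.02 to 0.18 under the combination. After scaling Bmp7 was higher with the combination, at 0.25 (adjusted p = 0.00266 by limma). It then did not pass with Enalapril, at 0.11 (adjusted p = 0.242), or with Compound 1, at 0.01 (adjusted p = 0.973). Bmp4, a ligand of the stroma and vessels, ran from 10.4 to 20.5 FPKM in Vehicle (median 16.1), from 15.5 to 23.9 with Enalapril (median 18.9), from 15.4 to 21.6 with Compound 1 (median 18.3) and from 14.9 to 24.4 with the combination (median 19.97). Against Vehicle, 11 of 12 combination animals lay above the Vehicle median, and Bmp4 rose by 0.29 ± 0.09 (adjusted p = 0.009), with 0.24 ± 0.09 under Enalapril (adjusted p = 0.062) and 0.20 ± 0.08 under Compound 1 (adjusted p = 0.324). After scaling Bmp4 also passed with Enalapril, at 0.39 (adjusted p = 0.00483 by limma), and not with Compound 1, at 0.27 (adjusted p = 0.174).

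Bmp6, an iron-responsive BMP, averaged 6.82 ± 1.39 FPKM in Vehicle, 5.37 ± 1.34 under Enalapril, 7.41 ± 1.53 under Compound 1 and 6.30 ± 0.983 under the combination, and none of its differences from Vehicle passed. Bmp2 averaged 1.54 ± 0.318 FPKM in Vehicle, 1.18 ± 0.181 with Enalapril and 1.20 ± 0.366 with the combination, with adjusted p = 0.051 and 0.0542. Gdf11, a ligand that signals through activin receptors, averaged 3.77 ± 0.425 FPKM in Vehicle (SD, n = 11), 2.89 ± 0.446 under Enalapril (n = 9) and 2.88 ± 0.505 under the combination (n = 12), and all 9 and all 12 animals lay below the Vehicle median. The differences were -0.38 ± 0.10 (adjusted p = 0.0055) and -0.39 ± 0.09 (adjusted p = 0.00218). Gdf15, a stress-induced ligand, ran from 19.2 to 47.5 FPKM in Vehicle (median 23.5), from 11.5 to 30.2 with Enalapril (median 20.02), from 13.7 to 39.3 with Compound 1 (median 22.2) and from 15.2 to 26.6 with the combination (median 21.0), and no difference from Vehicle passed (adjusted p from 0.157 to 0.557). Bmp15, known from the oocyte, was listed at 1.17 ± 0.313 FPKM in Vehicle and 1.59 ± 0.344 with the combination, a rise of 0.41 ± 0.15 (adjusted p = 0.0305). Gdf1 lay under 0.001 FPKM in 7 animals and reached 2.02 in others, and since RefSeq gives it the same span as Cers1 its reads and those of Cers1 cannot be told apart, so its differences are uncertain.

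Of the BMP receptors, Acvrl1 (ALK1), an endothelial receptor of BMP9 and TGF-beta, fell in the groups that received Enalapril. It ran from 14.7 to 22.2 FPKM in Vehicle (median 16.6), from 12.3 to 14.9 with Enalapril (median 13.5), from 13.1 to 20.2 with Compound 1 (median 16.5) and from 12.7 to 23.3 with the combination (median 14.3). With Enalapril 8 of 9 animals lay below the lowest Vehicle animal and the difference was -0.35 ± 0.07 (adjusted p = 0.00131). With the combination it was -0.20 ± 0.08 (adjusted p = 0.0498), and after scaling the adjusted p was 0.0355 and 0.782. Bmpr1a, Bmpr1b, Bmpr2 and Acvr1, the remaining BMP receptors, passed in no comparison with Vehicle. Their means in Vehicle were 12.7 ± 1.57, 2.58 ± 0.481, 4.74 ± 1.23 and 11.3 ± 1.83 FPKM. The median difference of the 5 tested members of this group was -0.17 with Enalapril and -0.06 with the combination.

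Inhbb, the activin B subunit, was the one member called against Vehicle in both groups that received Enalapril. It ran from 3.66 to 7.35 FPKM in Vehicle (median 4.84), from 1.68 to 4.21 with Enalapril (median 3.26), from 2.69 to 6.46 with Compound 1 (median 4.41) and from 2.40 to 3.86 with the combination (median 2.55). All 9 Enalapril and all 12 combination animals lay below the Vehicle median, 8 and 10 of them below the lowest Vehicle animal. The ratio of the means was 0.649 with Enalapril and 0.577 with the combination. Inhbb fell, at -0.61 ± 0.14 (adjusted p = 0.00333) and -0.76 ± 0.12 (adjusted p = 3.81e-05). After scaling it still passed without the fold threshold, at -0.46 (adjusted p = 0.0104) and -0.60 (adjusted p = 5.76e-05). Leaving out Vehicle animal 1003, 1006 or 1007 or Enalapril animal 2005 or 2008 ended the call with Enalapril, where the difference then ran up to -0.51, and leaving out any 1 animal left the call with the combination in place. Inha, the inhibin alpha subunit, fell with the combination from 4.11 ± 1.08 to 3.08 ± 0.929 FPKM (-0.42 ± 0.15, adjusted p = 0.0256; 0.2 after scaling). Inhba, the activin A subunit, was under the filter: it averaged 0.284 ± 0.225 FPKM in Vehicle, 0.221 ± 0.131 under Enalapril, 0.455 ± 0.249 under Compound 1 and 0.290 ± 0.150 under the combination, and was not tested. The activin receptors Acvr1b and Acvr2a averaged 19.2 ± 2.19 and 3.35 ± 0.790 FPKM in Vehicle, Acvr2b was at 0.816 ± 0.330, and none of the 3 passed against Vehicle (lowest adjusted p = 0.394).

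Among the follistatins Fst rose with Compound 1 and fell with Enalapril, while Fstl1 and Fstl3 fell with Enalapril. Fst, the main activin antagonist, ran from 5.82 to 9.96 FPKM in Vehicle (median 8.88), from 4.81 to 8.17 with Enalapril (median 6.99), from 8.0 to 17.7 with Compound 1 (median 12.1) and from 6.38 to 10.4 with the combination (median 7.92). With Compound 1, 11 of 12 animals lay above the Vehicle median and 10 above the highest Vehicle animal, and with Enalapril all 9 lay below the Vehicle median. Fst rose by 0.48 ± 0.11 with Compound 1 (adjusted p = 0.0376, ratio of means 1.42), the only member to pass in that comparison, and fell, at -0.35 ± 0.10 with Enalapril (adjusted p = 0.0118). After scaling the difference with Enalapril did not pass, at -0.20 (adjusted p = 0.121). With the combination it differed by -0.07 ± 0.09 (adjusted p = 0.512). The rise with Compound 1 did not reach the fold threshold, and after scaling that rise was 0.55 (adjusted p = 0.00134). Its adjusted p was 0.0751 with no filter on low genes, 0.0978 without animals 2103 and 3102 to 3105 and 0.0578 without Vehicle animals 1003 and 1004. Leaving out 1 animal at a time kept it under 0.05 in 12 of 23 fits, and the 11 others were those without Vehicle animal 1001, 1002, 1006, 1007 or 1009 or Compound 1 animal 3102, 3103, 3006, 3007, 3008 or 3012, with a highest value of 0.076. The difference in those 23 fits lay between 0.43 and 0.53.

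Fstl1, a secreted glycoprotein of mesenchymal cells, ran from 29.1 to 53.2 FPKM in Vehicle (median 38.8), from 21.2 to 39.2 with Enalapril (median 27.5), from 28.0 to 49.99 with Compound 1 (median 42.0) and from 23.2 to 41.4 with the combination (median 31.0). It fell, at -0.50 ± 0.12 with Enalapril (adjusted p = 0.00415) and -0.34 ± 0.10 with the combination (adjusted p = 0.00766), whereas with Compound 1 the 95% interval ran from -0.22 to 0.22. Fstl3, which binds activins and myostatin, averaged 5.77 ± 1.26 FPKM in Vehicle, 3.99 ± 0.538 under Enalapril, 6.65 ± 1.53 under Compound 1 and 4.54 ± 0.962 under the combination. It fell, at -0.50 ± 0.12 with Enalapril (adjusted p = 0.00434) and -0.33 ± 0.12 with the combination (adjusted p = 0.0304). After scaling neither Fstl1 nor Fstl3 passed with the combination (adjusted p = 0.0959 and 0.303).

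Of the 8 Smads 7 were tested, and none was a DEG. Smad3, the TGF-beta effector, ran from 17.0 to 23.6 FPKM in Vehicle (median 19.5), from 13.4 to 18.1 with Enalapril (median 16.6), from 15.2 to 22.5 with Compound 1 (median 18.8) and from 14.5 to 21.9 with the combination (median 15.9). All 9 Enalapril animals lay below the Vehicle median, and Smad3 fell, at -0.32 ± 0.07 (adjusted p = 0.00354) and with the combination, at -0.25 ± 0.07 (adjusted p = 0.00775). Smad2, its partner, fell, at -0.25 with Enalapril (adjusted p = 0.0286), and Smad4, the common partner, at -0.25 with Enalapril (adjusted p = 0.0399) and -0.23 with the combination (adjusted p = 0.0112). Smad1, a BMP effector, fell, at -0.31 (adjusted p = 0.0137) and -0.41 (adjusted p = 0.00185), and Smad5 at -0.26 with the combination (adjusted p = 0.0318). After scaling none of these passed with Enalapril, and Smad1 was the only Smad that passed with the combination (adjusted p = 0.00797). The inhibitory Smads, which are induced by the pathway and block its receptors, passed in neither comparison: Smad7 averaged 8.05 ± 1.84 FPKM in Vehicle, 7.21 ± 1.19 under Enalapril, 7.36 ± 1.1 under Compound 1 and 7.69 ± 1.37 under the combination, and Smad6 averaged 4.34 ± 0.827, 3.68 ± 0.930, 4.86 ± 0.853 and 4.18 ± 0.948.

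The symbol rule also took in 5 genes that are not ligands, receptors or Smads. Bmp1 encodes a protease that processes procollagens and frees latent TGF-beta, and is no BMP ligand. It ran from 12.2 to 19.3 FPKM in Vehicle (median 14.7), from 8.84 to 12.7 with Enalapril (median 10.7), from 9.05 to 19.3 with Compound 1 (median 13.8) and from 7.79 to 16.7 with the combination (median 9.36). With the combination 11 of 12 animals lay below the lowest Vehicle animal and 1 above the Vehicle median. Bmp1 was a DEG with the combination, at -0.61 ± 0.10 (adjusted p = 6.47e-05), and fell, at -0.46 ± 0.08 with Enalapril (adjusted p = 0.000646). After scaling it was no DEG with the combination, at -0.43 (adjusted p = 0.000313). Because its fold lay near the threshold, 8 of the 23 fits that left out 1 animal each lost the call (leaving out Vehicle animal 1003 or 1004, or combination animal 4001, 4004, 4006, 4007, 4008 or 4012), and none of the 23 gave an adjusted p above 0.000166. Tgfb1i1 (Hic-5), a focal adhesion adaptor, averaged 12.7 ± 1.96, 8.95 ± 1.03, 13.3 ± 2.43 and 10.1 ± 1.55 FPKM in Vehicle, Enalapril, Compound 1 and the combination. All 9 Enalapril animals lay below the lowest Vehicle animal. By limma Tgfb1i1 fell, at -0.50 ± 0.09 with Enalapril (adjusted p = 0.000446) and -0.33 ± 0.09 with the combination (adjusted p = 0.00402). After scaling it passed with Enalapril (adjusted p = 0.0034) and not with the combination (adjusted p = 0.139).

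Tgfbi, a matrix protein named for its induction by TGF-beta, was not lower in any treatment group. It ran from 14.5 to 19.96 FPKM in Vehicle (median 15.7), from 14.4 to 19.5 with Enalapril (median 16.8), from 15.9 to 22.4 with Compound 1 (median 20.6) and from 16.5 to 21.8 with the combination (median 18.4). All 12 Compound 1 animals and all 12 combination animals lay above the Vehicle median. Tgfbi rose by 0.22 ± 0.06 with the combination (adjusted p = 0.00405), and differed by 0.26 ± 0.07 with Compound 1 (adjusted p = 0.1, and 0.00846 after scaling) and by 0.05 ± 0.07 with Enalapril (adjusted p = 0.592). Tgfbrap1, which binds TGF-beta receptors, and Bmp2k, a kinase, passed in no comparison with Vehicle on the deposited FPKM, whereas after scaling Tgfbrap1 passed with the combination, at 0.16 (adjusted p = 0.0127).

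The TGF-beta ligands, latent binding proteins and follistatins were lower with Enalapril than with Compound 1. Between Enalapril and Compound 1, 5 of 45 members were lower with Enalapril and none was higher, beside 1.89% of all tested genes lower. These were Fst at -0.83 ± 0.11 (adjusted p = 2.34e-06), Tgfb2 at -0.72 ± 0.14 (adjusted p = 0.000576), Ltbp2 at -0.72 ± 0.12 (adjusted p = 0.000121), Fstl3 at -0.70 ± 0.13 (adjusted p = 0.000313) and Tgfb3 at -0.60 ± 0.12 (adjusted p = 0.000824). All 9 Enalapril animals lay below the Compound 1 median for each of the 5, and 8 of the 9 lay below the lowest Compound 1 animal for Fst. After scaling 4 of the 5 were called, beside 1.15% of all genes lower, Tgfb3 being the one that was not (-0.53). At any fold 17 members were lower and none higher (all genes 10.9% lower), and after scaling 16 lower and 1 higher (all genes 7.62% and 5.93%). By role, 7 of 7 TGF-beta ligands and latent binding proteins and 3 of 3 follistatins passed at any fold on both scales, against 1 of 9 tested BMP and GDF ligands (Bmp6), 0 of 4 TGF-beta receptors and 2 of 7 Smads (Smad3 and Smad6). Bmp6 was lower with Enalapril than with Compound 1, at -0.46 ± 0.12 (adjusted p = 0.0108). Markers of other tissue parts moved between these groups too: the mean log2 level of the inner medulla markers was 3.59 ± 0.185 (SD, n = 9) under Enalapril and 3.89 ± 0.201 (n = 12) under Compound 1, and 1 of 6 tested inner medulla, 1 of 6 fibroblast and pericyte, 1 of 4 smooth muscle and 1 of 7 T and B cell markers were lower with Enalapril. With inner medulla marker level as a covariate 3 of the 5 members were called, beside 0.282% of all genes lower: Fst at -0.69, Tgfb2 at -0.71 and Ltbp2 at -0.63, whereas Tgfb3 and Fstl3, at -0.58 and -0.57, were short of the fold threshold. With that covariate Tgfb1, Ltbp1, Ltbp3, Ltbp4 and Fstl1 did not pass at any fold (adjusted p = 0.241, 0.456, 0.428, 0.394 and 0.118 by limma). Bmp6, Smad3 and Smad6 did not pass with it either (adjusted p = 0.184, 0.324 and 0.162). The part of the other markers was not tested.

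**Figure D4:**
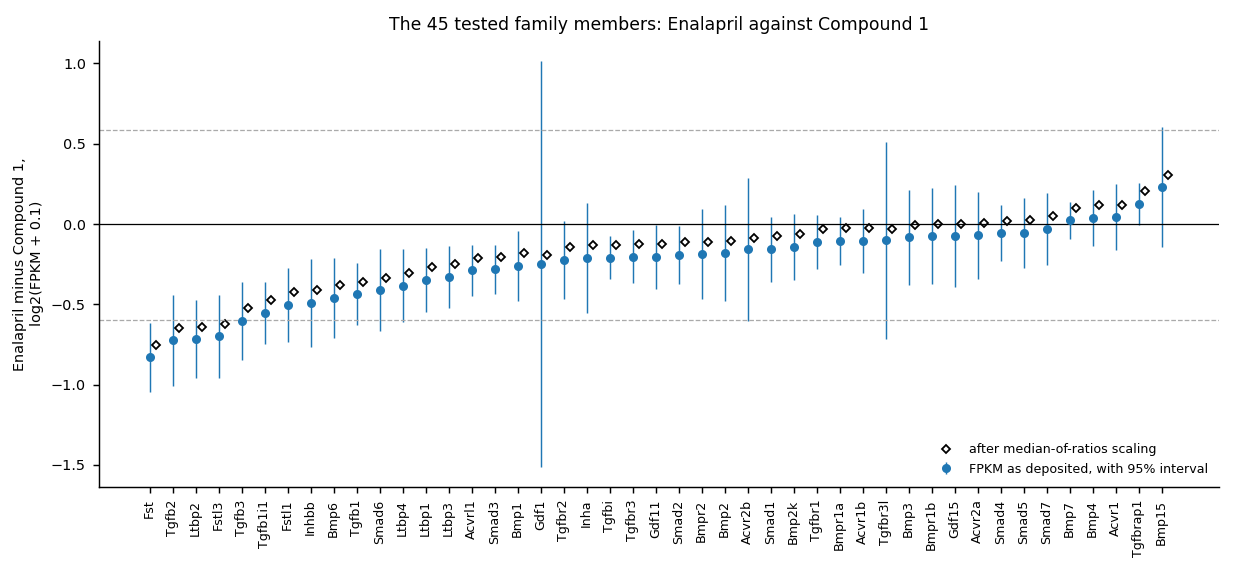
Difference of Enalapril from Compound 1 for the 45 tested members on the log2(FPKM + 0.1) scale, sorted; filled points with 95% intervals are the deposited FPKM, open diamonds the values after median-of-ratios scaling, and dashed lines the fold thresholds. Fst, Tgfb2, Ltbp2, Fstl3 and Tgfb3 lie below the lower line, and Bmp7 and Bmp4 lie near 0.

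Promoters are shown for the members that were called in at least 1 comparison. RefSeq (GRCr8) gave a promoter of 300 bases, from 250 before to 50 after the start, for 51 of the 62 members and for 5 of the 7 called members; Fst and Bmp1 were not matched. All 5 lie on the minus strand: Tgfb2 at chr13:100792636-100792935, Tgfb3 at chr6:111456897-111457196, Ltbp2 at chr6:110257249-110257548, Fstl3 at chr7:10579795-10580094 and Inhbb at chr13:33089324-33089623. The sequences run 5′ to 3′ along the gene, and capitals mark matches on either strand to CAGAC (the Smad box with a flanking base), GGCGCC (a GC-rich Smad element), TGACTCA (AP-1), TGACGTCA (the cyclic nucleotide response element) and TATAAA (the TATA box), motifs chosen after the values were seen.
Tgfb2: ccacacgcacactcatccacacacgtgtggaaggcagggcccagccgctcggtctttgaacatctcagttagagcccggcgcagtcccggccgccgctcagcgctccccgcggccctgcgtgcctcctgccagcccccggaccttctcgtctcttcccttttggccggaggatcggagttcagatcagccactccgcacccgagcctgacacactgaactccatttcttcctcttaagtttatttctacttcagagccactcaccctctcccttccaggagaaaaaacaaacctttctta
Tgfb3: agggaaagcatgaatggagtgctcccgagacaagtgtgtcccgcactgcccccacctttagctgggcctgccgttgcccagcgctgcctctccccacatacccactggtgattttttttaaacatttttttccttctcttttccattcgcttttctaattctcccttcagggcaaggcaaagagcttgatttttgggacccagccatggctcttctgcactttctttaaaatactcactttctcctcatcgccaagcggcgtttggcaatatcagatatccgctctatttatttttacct
Ltbp2: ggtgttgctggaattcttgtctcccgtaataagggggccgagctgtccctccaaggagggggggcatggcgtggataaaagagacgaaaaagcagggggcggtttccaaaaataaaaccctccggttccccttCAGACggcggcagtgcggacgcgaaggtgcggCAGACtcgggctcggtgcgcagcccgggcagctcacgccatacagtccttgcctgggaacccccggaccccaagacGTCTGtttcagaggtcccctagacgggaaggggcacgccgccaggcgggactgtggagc
Fstl3: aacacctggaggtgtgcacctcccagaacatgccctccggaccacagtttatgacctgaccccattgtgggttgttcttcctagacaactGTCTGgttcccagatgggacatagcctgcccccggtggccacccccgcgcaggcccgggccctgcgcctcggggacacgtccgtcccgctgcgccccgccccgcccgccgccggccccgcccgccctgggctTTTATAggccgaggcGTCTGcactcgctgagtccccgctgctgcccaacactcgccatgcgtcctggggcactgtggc
Inhbb: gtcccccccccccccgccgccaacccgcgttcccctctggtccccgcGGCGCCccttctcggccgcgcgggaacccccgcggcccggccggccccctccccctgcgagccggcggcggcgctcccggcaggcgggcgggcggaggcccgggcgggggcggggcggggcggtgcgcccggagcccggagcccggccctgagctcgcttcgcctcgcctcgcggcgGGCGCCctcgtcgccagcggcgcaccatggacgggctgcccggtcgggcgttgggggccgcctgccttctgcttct
Ltbp2 held 3 matches to CAGAC and Fstl3 held 2 with 1 TATAAA, read on the opposite strand, Inhbb held 2 matches to GGCGCC, and Tgfb2 and Tgfb3 held none of the 5 motifs. CAGAC occurs in 49.97% and GGCGCC in 11.8% of 27457 RefSeq promoters of this length, TATAAA in 14.3%, TGACTCA in 4.53% and TGACGTCA in 1.91%. In the 51 family promoters CAGAC occurred in 17 and GGCGCC in 15, with a median GC content of 65.0% beside 52.3% over all promoters. A match describes letters in a window and is no evidence that a factor binds there.

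No member was called between the combination and Enalapril alone, and Inhbb was the 1 member called between the combination and Compound 1 alone on the deposited FPKM. Against Enalapril no member was called by limma, beside 0.00742% of all tested genes, and none passed at any fold. An unadjusted p under 0.05 was found for 3 members, beside 1401 of 13482 tested genes, and the lowest adjusted p was 0.351 (Fst). For 43 of 45 members the 95% interval of that difference lay inside the fold thresholds, the exceptions being Gdf1 and Tgfbr3l. Fst was 0.27 higher in the combination than with Enalapril, with an interval from 0.06 to 0.49, and Bmp7 0.12 higher, with an interval from 0.0038 to 0.23. Against Compound 1, 1 member was lower with the combination, Inhbb at -0.64 ± 0.13 (adjusted p = 0.000773), beside 2.05% of all tested genes lower. All 12 combination animals lay below the Compound 1 median of 4.41 FPKM. Inhbb was not called after scaling (-0.54, with 0 members called beside 1.09% of all genes lower), with a pseudocount of 1 (-0.51), after quantile normalization (-0.49) or with the inner medulla covariate (-0.53), and it was not among the genes tested at FPKM above 5. At any fold 15 members were lower and 1 higher (all genes 17.4% and 4.72%), the higher one being Bmp7 at 0.14 ± 0.05 (adjusted p = 0.0474), and the lower ones included Fst at -0.56, Tgfb2 at -0.54, Fstl3 at -0.53, Tgfb3 at -0.53, Ltbp2 at -0.52 and Tgfb1 at -0.40. Fst, with an adjusted p of 0.000388, lay short of the fold threshold. After scaling 11 members were lower and 2 higher at any fold (all genes 9.45% and 10.8%). Because the combination was given the lower dose of Compound 1, dose and Enalapril cannot be told apart in this comparison.

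The interaction of Enalapril and Compound 1, which asks whether the combination departs from the sum of the single effects on the log2 scale, called no member by limma, beside 0.00742% of all tested genes. Compound 1 reached 3 mg/kg/day alone and stayed at 1 mg/kg/day in the combination, so a departure from the sum and the difference in dose cannot be told apart. By limma 1 member, Bmp7, had an unadjusted p under 0.05 (0.18 ± 0.08, p = 0.0267), beside 579 of 13482 tested genes. The lowest adjusted p was 0.986. For 39 of 45 members the 95% interval lay inside the fold thresholds, and for Tgfb1 it ran from -0.19 to 0.34, for Inhbb from -0.41 to 0.35 and for Fst from -0.51 to 0.09. In Compound 1 against Vehicle 41 of 45 intervals lay inside the fold thresholds, the exceptions being Fst, Gdf1, Acvr2b and Tgfbr3l.

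The other genes of the pathway were taken as 5 lists. Of 14 tested antagonists and coreceptors 0 were DEGs by limma against Vehicle in any treatment, with a median difference of -0.20 for Enalapril and -0.21 for the combination. Of all tested genes 4.04% were lower and 0.490% higher with Enalapril, and 6.39% and 0.994% with the combination. After scaling 1 of the 14, Hjv, the BMP coreceptor hemojuvelin, was higher with the combination, at 0.73 (adjusted p = 8.4e-05), beside 2.50% of all genes higher. Of 11 tested genes of latent TGF-beta activation 1 was lower with Enalapril and 1 with the combination, none higher. In both it was Mmp2, a gelatinase, which averaged 31.5 ± 6.39 FPKM in Vehicle, 18.6 ± 4.03 with Enalapril and 19.3 ± 4.70 with the combination (-0.76 ± 0.12, adjusted p = 0.000249, and -0.71 ± 0.12, adjusted p = 9.79e-05), and after scaling it was called with Enalapril and not with the combination. Of 18 tested intracellular regulators 2 were lower with Enalapril and 2 lower and 1 higher with the combination. The lower ones were the Smad corepressors Tgif1, at 47.8 ± 8.38 FPKM in Vehicle against 29.6 ± 4.4 and 25.6 ± 4.72, and Tgif2, at -0.67 and -0.71. The higher one, the kinase gene Map3k7, ran from 0.0001 to 4.56 FPKM in Vehicle and from 0.742 to 3.53 with the combination, with a difference of 1.43 ± 0.55 (adjusted p = 0.0372). After scaling none of the 18 was called by limma with Enalapril, and 1 was lower and 1 higher with the combination.

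Of 24 tested TGF-beta response genes, 8 were lower under Enalapril, 0 under Compound 1 and 6 under the combination, and none was higher in any of the 3, beside 4.04% of all genes lower, 0.200% in either direction and 6.39% lower. After scaling 6, 0 and 2 were lower (all genes 1.22% lower, 0.193% in either direction and 2.31% lower), and with inner medulla marker level as a covariate 2, 0 and 6 (all genes 0.912% lower under Enalapril and 4.98% under the combination). Their median difference was -0.46, 0.03 and -0.40, beside all-gene medians of -0.15, -0.07 and -0.18. The list holds matrix genes that fibroblasts express, and the fibroblast and pericyte markers, which share Col1a1 and Col3a1 with it, were lower in the same groups; their part was not tested. Cdkn2b, a cell cycle inhibitor, averaged 3.01 ± 0.925 FPKM in Vehicle, 1.41 ± 0.439 under Enalapril, 3.56 ± 1.30 under Compound 1 and 1.75 ± 0.615 under the combination (-1.05 ± 0.19, adjusted p = 0.000569, with Enalapril). Postn, a matrix protein of activated fibroblasts, averaged 2.05 ± 0.817, 1.00 ± 0.534, 2.12 ± 0.751 and 1.13 ± 0.440 FPKM in the same order, and Col3a1, a fibrillar collagen, 104 ± 22.8, 60.6 ± 13.5, 90.8 ± 21.7 and 60.3 ± 14.2. Col1a2, another fibrillar collagen, was lower, at -0.89 ± 0.22 with Enalapril (adjusted p = 0.00539). Between Enalapril and Compound 1, 11 of the 24 were lower with Enalapril and none higher, and with the combination 5 were lower than with Compound 1, beside 1.89% and 2.05% of all genes lower. After scaling these counts were 6 and 3 (all genes 1.15% and 1.09%), and with the covariate 4 and 2 (all genes 0.282% and 0.690%). Of 9 tested BMP response genes none was called with Enalapril or Compound 1 and 2 were lower with the combination, the transcription factor genes Gata6 (-0.69 ± 0.14, adjusted p = 0.000419) and Runx2 (-0.68 ± 0.17, adjusted p = 0.00235), neither of which was called after scaling. After scaling 1 BMP response gene, Id4, which encodes an inhibitor of DNA binding, was higher with Enalapril, at 0.65 (adjusted p = 0.00165), and with the combination, at 0.72 (adjusted p = 9.1e-05), beside 1.52% and 2.50% of all genes higher. Hjv and Id4 were named after their values were seen.

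Whether a ligand and a transcript tied to it varied together between animals was asked for 6 pairs, of which 5 are given here, on log2(FPKM + 0.1) with group means removed (n = 44, two-sided permutation tests within groups, 100000 resamples). Inhba and Fst gave Pearson's r = 0.44 (permutation p = 0.00329, adjusted p = 0.00987 over the 6 pairs) and Spearman's rho = 0.35 (permutation p = 0.0214, adjusted p = 0.0642), with r = 0.40 without the 2 animals farthest from the median of Inhba. Within groups r was 0.66 in Vehicle, 0.20 under Enalapril, 0.52 under Compound 1 and 0.28 under the combination, and the difference between groups was not tested. Bmp6 and Id1, a BMP target, gave r = 0.39 (permutation p = 0.01315, adjusted p = 0.0263) and rho = 0.33 (permutation p = 0.03648, adjusted p = 0.073), with r = 0.30 without the 2 animals farthest from the median of Bmp6. Within groups its r was 0.65, 0.08, 0.29 and 0.24 in the same order. Inhba lay under 1 FPKM in every animal, so its values carry large counting error. Tgfb1 and Tgfbi (r = 0.13, rho = 0.14, permutation p = 0.44081 and 0.39962), Tgfb1 and Smad7 (r = -0.23, rho = -0.07, permutation p = 0.16139 and 0.66366) and Bmp7 and Id1 (r = 0.09, rho = 0.09, permutation p = 0.54799 and 0.58206) did not pass, with adjusted p from 0.242 to 0.664. After median-of-ratios scaling r was 0.28 for Inhba and Fst (adjusted permutation p = 0.146) and 0.13 for Bmp6 and Id1 (0.675), and it was -0.71 for Tgfb1 and Smad7 (0.00012).

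**Figure D5:**
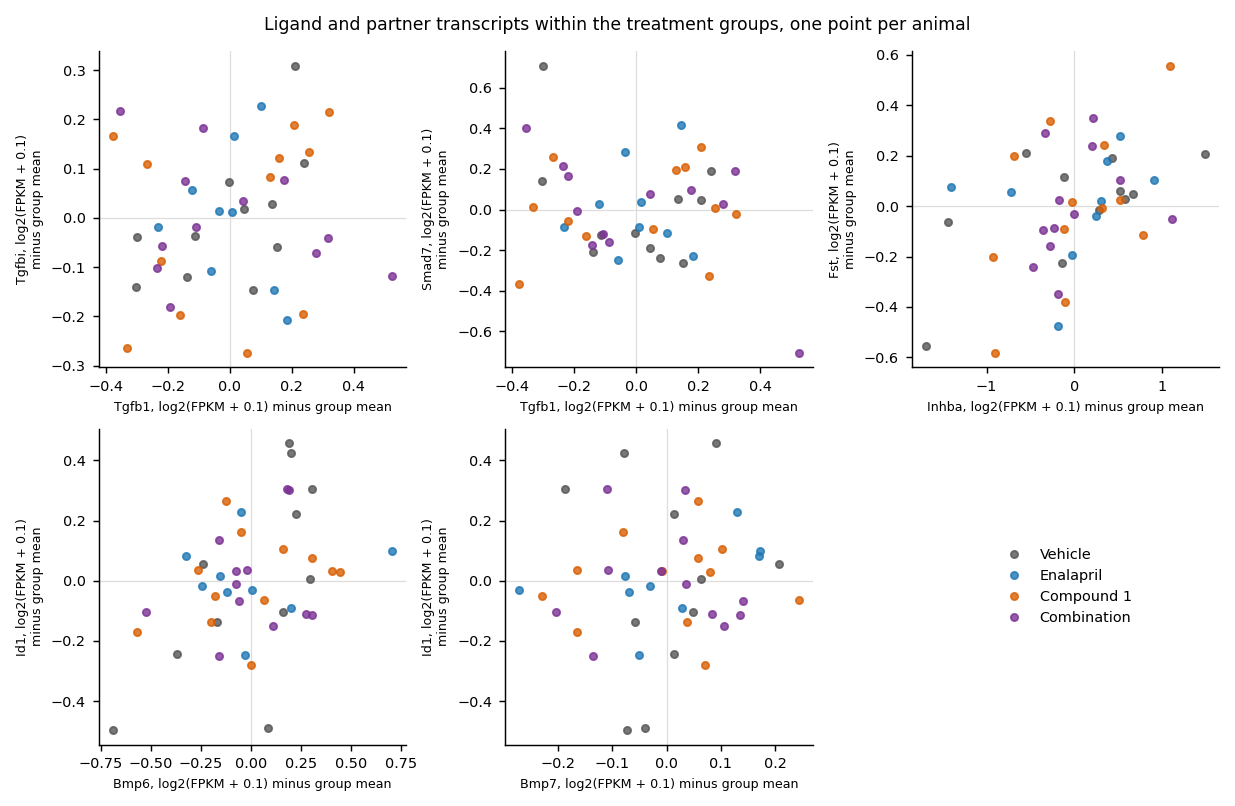
Each of 5 pairs in 44 animals on the log2(FPKM + 0.1) scale with the group mean removed, 1 point per animal, coloured by treatment group. Inhba and Fst give r = 0.44 on the deposited FPKM and 0.28 after median-of-ratios scaling (adjusted permutation p = 0.146). Inhba lies under 1 FPKM in every animal. Bmp7 and Id1 form no line (r = 0.09).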

How the data were processed

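Kidney RNA of 44 obese ZSF1 rats was sequenced by the authors as stranded mRNA libraries, and the deposited values are FPKM per gene, computed by the authors on build rn6 per the labels. The aligner, counting program and annotation were not given in the sources used here. Raw counts, which the authors tested with DESeq2, were not used, and since the deposited FPKM are no counts no count model was run. Columns were assigned to animals by the numbers in their names, and 2 empty columns were left out.

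FPKM were turned into log2(FPKM + 0.1), so fold changes of low genes are understated. A gene was tested if 9 or more animals exceeded 1 FPKM (13482 genes), using limma 3.58.1 (R 4.3.3) with a mean-variance trend, each treatment against Vehicle on the groups compared, and the other comparisons and the interaction in one 4-group fit. The Benjamini-Hochberg adjustment ran over every tested gene. The thresholds of the study defined a DEG (adjusted p below 0.05, fold change over 1.5 or below 0.66); fell and rose refer to the adjusted p alone. Median-of-ratios scaling, other pseudocounts, filters and normalizations, sample weights, an inner medulla covariate and leaving out animals were tried as alternatives. The test recovered changes set in simulated data, all of them past the fold thresholds. Those data held no shift common to all genes, so smaller differences and such shifts were not checked. The labels name separate animals and no pairing. The family, its lists, motifs and roles were chosen with earlier results of these data known. Named members were those called in any comparison, a fixed set of ligands, receptors, Smads and binding proteins, and the 5 of highest level; further members were named to complete a role. From each list up to 4 called genes of largest difference were named. Of 6 correlated pairs, 1 is not reported here.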

Additional observations from a re-analysis of the deposited data

Results flagged for a closer look

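In the Enalapril group, the one of 4 to 10 animals, 45 members were checked for an animal far from the other 8. Such an animal was found for 2 members. Chance alone flags about 1 in 20 such checks, so 2 of 45 is near the chance rate. Bmp6 was 8.64 FPKM in animal 2012, and the next highest animal was at 6.05. Without that animal the difference of Enalapril from Vehicle was -0.43 (adjusted p = 0.011) rather than -0.34 (adjusted p = 0.0565). Smad4 was 10.6 FPKM in animal 2005, and the next lowest animal was at 15.9. Without it Smad4 differed by -0.17 (adjusted p = 0.0658) rather than -0.25 (adjusted p = 0.0399). Both animals are among the 6 whose columns stand after all others in the table.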

How the results depend on the processing

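No paired analysis was possible because the animals of the groups share no numbers. Of 76 pairs of member and comparison with an adjusted p under 0.05, none changed direction under any alternative. With Enalapril against Vehicle the 1 call (Inhbb) became 0 with a pseudocount of 1, at FPKM above 5, after median-of-ratios scaling, with weighted samples, under the inner medulla covariate (also joined to scaling), or without Vehicle animals 1003 and 1004, and 1 higher (Bmp15, with Inhbb lost) after quantile normalization, and 20 members passed without the fold threshold (16 after scaling). Leaving out 1 animal gave 0 to 2 calls with Enalapril, 0 to 0 with Compound 1 and 1 to 2 with the combination. With Compound 1 against Vehicle 1 member passed without the fold threshold and 2 after scaling. With the combination against Vehicle the 2 calls became 1 with a pseudocount of 1, FPKM above 5, the inner medulla covariate or without Vehicle animals 1003 and 1004, 0 after scaling with or without the covariate, and 1 higher (Bmp15) after quantile normalization; without the fold threshold 22 passed, 13 after scaling. With the combination against Compound 1 the 1 call became 0 with a pseudocount of 1, FPKM above 5, scaling with or without the covariate, quantile normalization or the covariate, 2 with no filter or without the 6 animals whose columns stand last, 3 without animals 2103 and 3102 to 3105, 4 with sample weights, and 16 without the fold threshold (13 after scaling). With Enalapril against Compound 1 the 5 calls became 3 with a pseudocount of 1, quantile normalization or the covariate with or without scaling, and 17 without the fold threshold on either scale. The 3 settings that join scaling to another choice or leave out 1003 and 1004 were chosen after seeing the data. After scaling the correlation of Inhba and Fst was 0.28 and of Bmp6 and Id1 0.13, neither past the threshold by r, that of Tgfb1 and Smad7 reached -0.71 (adjusted p = 0.00012), and that of Bmp7 and Id1 turned to -0.0043. The causes were not tested. Depth is known only relative to other libraries, so no counting interval can be given for low members such as Inhba and Gdf10.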
